A study of Mus musculus with 16 samples.

Results

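The carriers described here are the SLC25 family, the proteins that move solutes across the inner membrane of mitochondria. Their transcripts were measured in quadriceps muscle of wild-type and HDAC3-KO mice. Members were all genes whose symbol begins with Slc25a and a digit and that stood in both deposited gene tables. This rule used the name and no measured value, though members were chosen with earlier results of these data known. It gave 47 of the 24327 genes usable in both tables.

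RNA sequencing covered 4 groups of 3 libraries each, all from quadriceps of male mice on a C57BL/6 background, 4 months old and fed normal chow. The genotypes were wild type and HDAC3-KO, the latter a knockout of a histone deacetylase that works within nuclear receptor corepressor complexes. Muscle was taken either from resting animals or 2 h after the last of 3 treadmill bouts, each 1 h long at 10 m/min and separated by 1 h of rest. Values are FPKM, fragments scaled by transcript length and library size, so levels can be set against each other between genes. The driver or cell type of the deletion is not given in the sources used here, nor is it said that the libraries of a group come from separate animals, so every p below measures the spread between these libraries only. Where bulk tissue shows a lower or higher level, fewer or more cells of a type and less or more RNA per cell cannot be told apart.

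The inner mitochondrial membrane is tight to charged metabolites, and SLC25 proteins, built from repeated membrane-spanning modules, exchange them between cytosol and matrix. ADP/ATP and phosphate carriers serve ATP synthesis, the aspartate/glutamate and oxoglutarate carriers bring reducing equivalents in through the malate-aspartate shuttle, and the carnitine carrier admits fatty acids for oxidation. Muscle relies on all of these during work, and the heart and muscle form of the ADP/ATP carrier is among the most abundant proteins of its mitochondria.

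Hdac3 itself averaged 29.3 ± 4.99 FPKM in wild-type and 6.65 ± 1.36 in knockout muscle at rest (SD, n = 3), and 30.2 ± 2.30 and 5.27 ± 1.12 after running. It fell in both conditions, with limma adjusted p of 0.00487 and 0.00111, but every knockout library still held 4.13 FPKM or more. The 6 muscle fibre markers summed to between 39722 and 58099.7 FPKM in every library and the 5 slow fibre markers to between 40.5 and 182 FPKM. In 2 libraries the neutrophil markers stood apart: S100a8 was 239.5 FPKM in the second wild-type library at rest and 156 FPKM in the third knockout library after running, against 6.20 or less in the other 10. Sequencing depth is unknown, since the tables hold no counts.

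Slc25a4, the ADP/ATP carrier of heart and muscle, was alone above 1000 FPKM. Slc25a3, the phosphate carrier, Slc25a12, the aspartate/glutamate carrier known as aralar, and Slc25a11, the oxoglutarate/malate carrier, lay between 100 and 1000 FPKM as means over the 12 libraries. Another 11 members lay at 10 to 100 FPKM, 20 at 1 to 10, and 9 above 0 but under 1. Slc25a41, Slc25a48 and Slc25a54 were listed at 0 in all 12 libraries, and Slc25a31, the ADP/ATP carrier of testis, was listed at 0 in 10 of them. In the plot of transcript levels, the steps from Slc25a4 to Slc25a3 and from Slc25a3 to Slc25a12 are large beside the distances between groups, while Slc25a12 and Slc25a11 lie closer and many neighbours further down trade places from group to group.

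**Figure D1:**
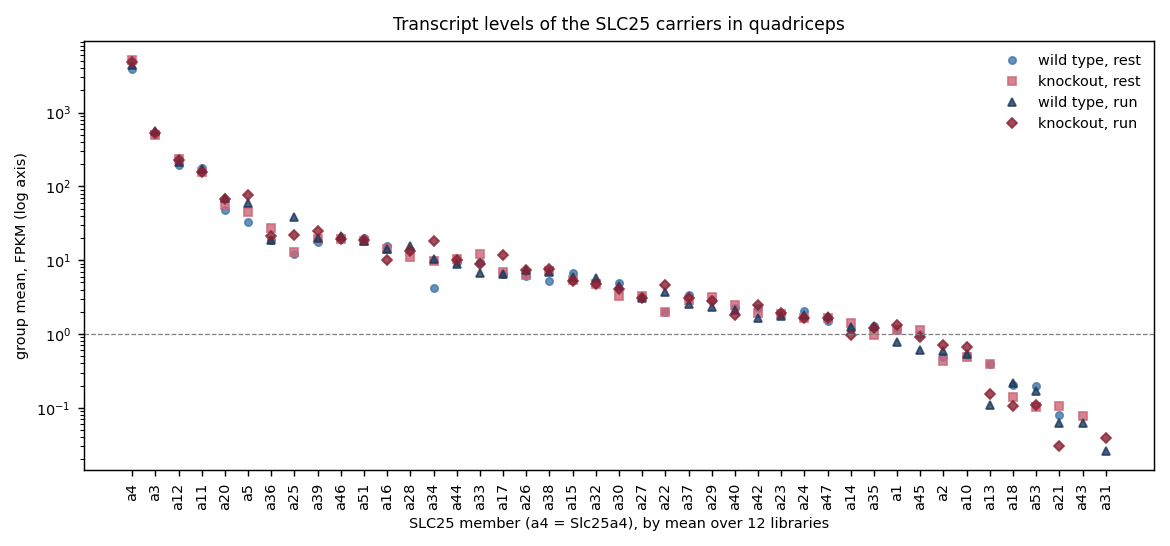
Mean FPKM of 43 of the 44 carriers with a value above 0, on a log axis, ordered by the mean over 12 libraries; each marker is the mean of 3 libraries of a group, group means at 0 are not drawn, and the dashed line is 1 FPKM. Slc25a4 stands alone above 1000 FPKM. Among the drawn carriers above 10 FPKM the widest gaps between groups sit at Slc25a5, Slc25a25 and Slc25a34. Gaps also show among carriers at lower levels, such as Slc25a22, Slc25a13 and Slc25a21.

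Slc25a4 held most of the family's transcripts. It made up 75.4% to 77.8% of the summed FPKM of the 47 genes in wild-type muscle at rest and 80.2% to 81.2% in knockout muscle at rest, so the genotypes did not overlap. After running, the same share was 76.1% to 77.8% in wild type and 76.3% to 81.3% in knockout, and the groups overlapped. All 47 carriers together took 1.01% to 1.12% of the library's FPKM in wild type and 1.29% to 1.32% in knockout at rest. After running they took 1.12% to 1.13% in wild type and 1.26% to 1.38% in knockout, apart in that condition too. These sums are mostly Slc25a4, and no test was made on them.

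Ratios within a library do not depend on how libraries were scaled. The FPKM of Slc25a4 per FPKM of Slc25a3 was 6.68 to 8.51 in wild type and 9.94 to 10.3 in knockout at rest. After running it was 7.54 to 8.51 in wild type and 7.67 to 11.2 in knockout, with overlap. Slc25a5, the ADP/ATP carrier of most other tissues and of growing cells, was a trace beside its muscle counterpart, with 0.841 to 0.866 FPKM for each 100 FPKM of Slc25a4 in wild type at rest and 0.869 to 0.920 in knockout. After running this ratio was 1.01 to 1.58 in wild type and 1.25 to 1.96 in knockout, above every resting library.

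**Figure D2:**
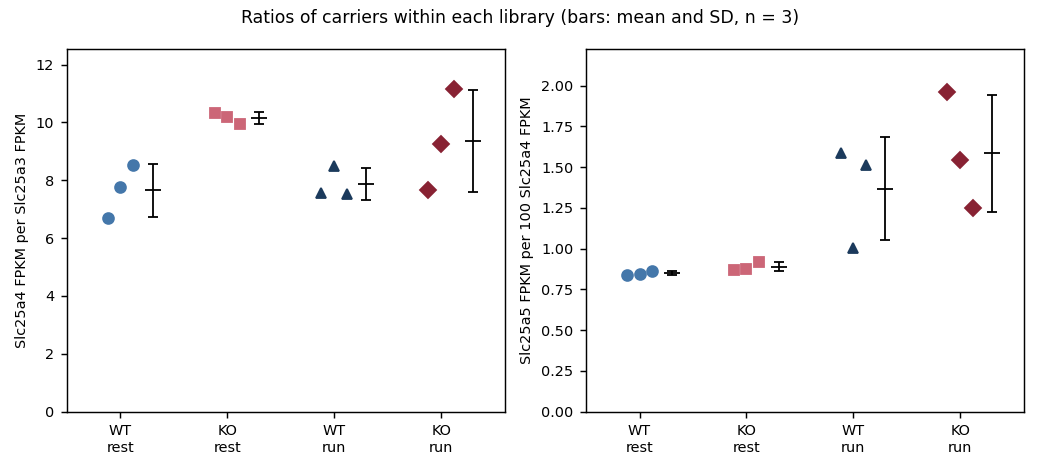
FPKM ratios of carriers within each library, Slc25a4 per Slc25a3 on the left and Slc25a5 per 100 of Slc25a4 on the right; points are libraries and bars show the mean and SD of 3. On the left the resting knockout libraries, 9.94 to 10.3, lie above all resting wild-type libraries; on the right all 6 running libraries lie above all 6 resting ones.

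The first comparison asked which carriers differ between HDAC3-KO and wild-type muscle at rest. Slc25a34 and Slc25a5 were called higher in the knockout, and no carrier was called lower. Genes were tested with limma, a linear model that moderates each gene's variance across genes, on log2(FPKM + 1), with Benjamini-Hochberg adjustment over all 9204 genes the authors tested, and a gene was called at an adjusted p at or under 0.05. Of the 47 carriers 30 entered this test, the other 17 having a deposited p of 1, taken as not tested by the authors, and 2 of the 30 were called higher and 0 lower. Over all tested genes limma called 3.04% higher and 1.67% lower, 4.72% in all, so a count of 2 in 30 stands near the background. At an unadjusted p under 0.05 there were 6 carriers, where 21.5% of all genes passed. By the authors' deposited q, 3 carriers were higher (Slc25a5, Slc25a34 and Slc25a36) and 0 lower, against 5.9% and 4.94% of all genes (10.8% in all). The median difference of the 30 carriers was 0.03 on the log2 scale, beside 0.01 for all tested genes, and the range ran from -0.46 to 1.04. Some markers of fibre type and of other cells differed at rest by the authors' deposited q or by separate libraries, while limma called 0 of 4 slow fibre and 0 of 5 fibroblast genes. Tnni1, the slow fibre troponin I, averaged 1.21 ± 0.118 FPKM in wild type and 2.81 ± 0.842 in knockout (SD, n = 3), apart, with limma adjusted p = 0.0649. Myl3, a slow fibre myosin light chain, had 74.6 ± 18.8 and 109.9 ± 29.8 FPKM, with overlap and the authors' deposited q of 0.00927. Of the other slow fibre markers, Tnnt1 and Myl2 overlapped, with limma differences of 0.13 and -0.58. Myh7 averaged 0.755 FPKM in wild type and 0.340 in knockout, with overlap, and was not tested. The fibroblast collagens Col1a1 and Col1a2 had lower knockout means, each with the authors' deposited q of 0.00119, and the libraries of Col1a2 were apart. Col3a1, Pdgfra and Dcn, the other fibroblast markers, overlapped, with limma differences of -0.37, 0.0017 and -0.22. The 5 fibroblast markers summed to 392 to 569 FPKM in wild type and 271 to 415 in knockout, the 5 slow fibre markers to 68.7 to 133 and 94.7 to 182, and none was at 0 in all libraries; their part in the carrier values at rest was not tested.

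Slc25a34 had the largest difference of the tested carriers at rest. It is an orphan member, grouped here with the di- and tricarboxylate carriers it resembles. Wild-type libraries held 5.66, 3.72 and 3.22 FPKM at rest and knockout libraries 7.70, 11.3 and 9.84. The groups did not overlap, the lowest knockout library lying above the highest wild-type one. The limma difference was 1.04 ± 0.20 (SE) on the log2(FPKM + 1) scale, with adjusted p = 0.0345. The call held in 1 of the 6 fits that leave out a library; without the second wild-type library, the one rich in neutrophil transcripts, the difference was 0.99 and the limma adjusted p 0.134.

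Slc25a5 showed a smaller and tighter difference. Its wild-type libraries at rest held 32.2, 32.9 and 33.1 FPKM and its knockout libraries 42.3, 45.6 and 48.2. All knockout libraries lay above all wild-type ones. The limma difference was 0.46 ± 0.09 (SE), adjusted p = 0.0377, and the call was lost in all 6 fits without a library, with limma adjusted p between 0.0696 and 0.150. The reference gene table lists 2 pseudogenes named for a member of the family, Slc25a5-ps and Gm5560. Slc25a5-ps carries the name of Slc25a5. Reads shared with such a copy could have been split in counting, and the level of Slc25a5 is uncertain to that extent.

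Promoters of the members on which the results turn are shown because both called members rose at rest and because Slc25a25, described further on, had the largest ratio of running to rest in wild type among the tested carriers. Each is the 250 bases before a transcription start in RefSeq, build GRCm38.p6, read 5′ to 3′ on the gene's strand. The sequence of Slc25a34 is at chr4:141623835-141624084, minus strand, and its capitals mark the nuclear receptor site AAGGTCA as it reads on the other strand, its first base 119 bases before the start. That of Slc25a5 is at chrX:36795347-36795596, plus strand, with its single GC box (GGGCGG on the other strand) in capitals, 14 bases before the start. That of Slc25a25 is at chr2:32424067-32424316, minus strand, 1 of 3 starts of this gene, with a cAMP response element (TGACGTCA) in capitals, 150 bases before the start.
Slc25a34: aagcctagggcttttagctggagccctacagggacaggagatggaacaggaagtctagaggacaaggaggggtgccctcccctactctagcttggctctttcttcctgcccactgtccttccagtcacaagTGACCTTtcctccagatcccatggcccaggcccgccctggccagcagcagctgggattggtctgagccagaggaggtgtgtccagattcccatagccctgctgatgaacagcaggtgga
Slc25a5: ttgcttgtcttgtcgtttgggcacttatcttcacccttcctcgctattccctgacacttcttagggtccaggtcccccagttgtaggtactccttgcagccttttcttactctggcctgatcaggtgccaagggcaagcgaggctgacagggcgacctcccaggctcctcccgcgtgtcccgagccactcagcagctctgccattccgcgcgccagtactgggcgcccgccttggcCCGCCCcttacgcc
Slc25a25: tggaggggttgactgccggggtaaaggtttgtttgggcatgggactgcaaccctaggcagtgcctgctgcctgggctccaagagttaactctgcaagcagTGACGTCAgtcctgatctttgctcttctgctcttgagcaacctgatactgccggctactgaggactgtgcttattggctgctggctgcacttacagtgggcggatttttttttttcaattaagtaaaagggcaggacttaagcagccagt

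RefSeq promoters matched 36 of the 47 members, with 46 starts, out of 32851 starts in the table, and all were searched on both strands. AAGGTCA was in 4.08% of all windows and in 1 of the 46 member windows. TGACGTCA was in 1.55% of all windows and in 2 member windows, those of Slc25a25 and Slc25a36. The E-box CACGTG was in 6.02% of all windows and 17.4% of member windows, the GC box GGGCGG in 32.7% and 69.6%. The palindromic NRF1 motif was in 3.74% and 4.35%, and the ATF4 composite TGATGNAA in 3.45% of all windows and 0 of the members'. In the windows printed above, no capital match overlaps another searched motif. The printed windows of Slc25a34 and Slc25a25 hold a GC box too, which is left in small letters. A match is a run of letters and not a shown binding site.

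**Figure D3:**
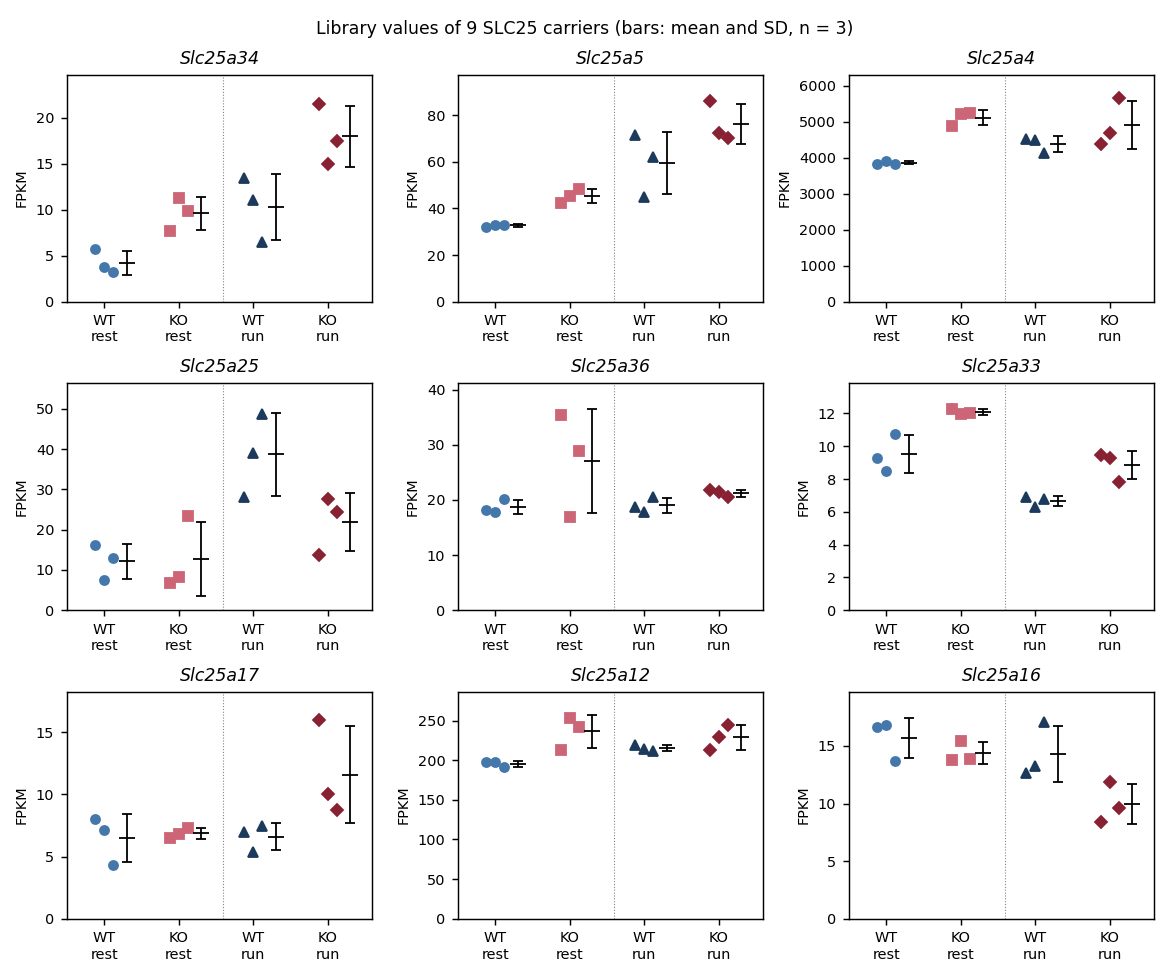
FPKM of 9 carriers in each of the 12 libraries on linear axes that start at 0; points are libraries, bars show the mean and SD of 3, and the dotted line parts the separately normalized rest and running tables. Slc25a34 and Slc25a33 show knockout libraries above wild-type ones on both sides of that line. Slc25a5, Slc25a4 and Slc25a12 do so on the left side only, Slc25a17 and Slc25a36 on the right side only. For Slc25a16 and Slc25a25 the knockout libraries lie below on the right side.

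The second comparison asked the same of muscle after running. No carrier of 29 tested passed limma in either direction, where 1.58% of the 9037 tested genes were called higher and 2.15% lower (3.73% in all); 6 carriers had an unadjusted p under 0.05, beside 19.9% of all genes. The authors' deposited q put 3 carriers higher in the knockout, Slc25a17 and Slc25a34 among them, and 2 lower, Slc25a16 and Slc25a25, against 4.66% and 4.91% of all tested genes (9.57% in all). Limma differences of the carriers ran from -0.81 to 0.79, with a median of 0.09 beside -0.00 for all tested genes. Macrophage markers moved with the genotype in this condition: summed over 4 listed genes they were 23.3 to 37.3 FPKM in wild type and 46.4 to 71.7 in knockout, 3 of 3 tested genes had separate libraries, 1 of 3 (Cd68) passed limma, and none was at 0 in all libraries. Tnnt1, a slow fibre troponin T, averaged 5.28 ± 1.82 FPKM in wild type and 2.30 ± 0.747 in knockout (SD, n = 3), apart. Its limma adjusted p was 0.0917 and the authors' deposited q 0.0269, while Myl3 overlapped with a limma difference of 0.35. Of the muscle fibre markers Tnnt3 was apart with the knockout below, and Myh1 overlapped at 0.30. Limma called 0 of 4 slow fibre and 0 of 6 muscle fibre genes. The part of macrophages or of fibre type in the carrier values after running was not tested.

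Beyond the test, libraries of the genotypes were apart for 10 of 30 carriers at rest, 6 with the knockout above and 4 with it below, where 15.6% and 12.4% of all tested genes did so (28.0% in all). After running this held for 8 of 29, 5 above and 3 below, against 12.4% and 13.7% (26.1% in all). The 4 with the knockout below at rest were Slc25a24, Slc25a37, Slc25a46 and Slc25a51. Slc25a33 and Slc25a34 were the members with all knockout libraries above in both conditions. In the plot of knockout differences, Slc25a34 lies farthest to the right in both conditions, and Slc25a25 farthest to the left after running.

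**Figure D4:**
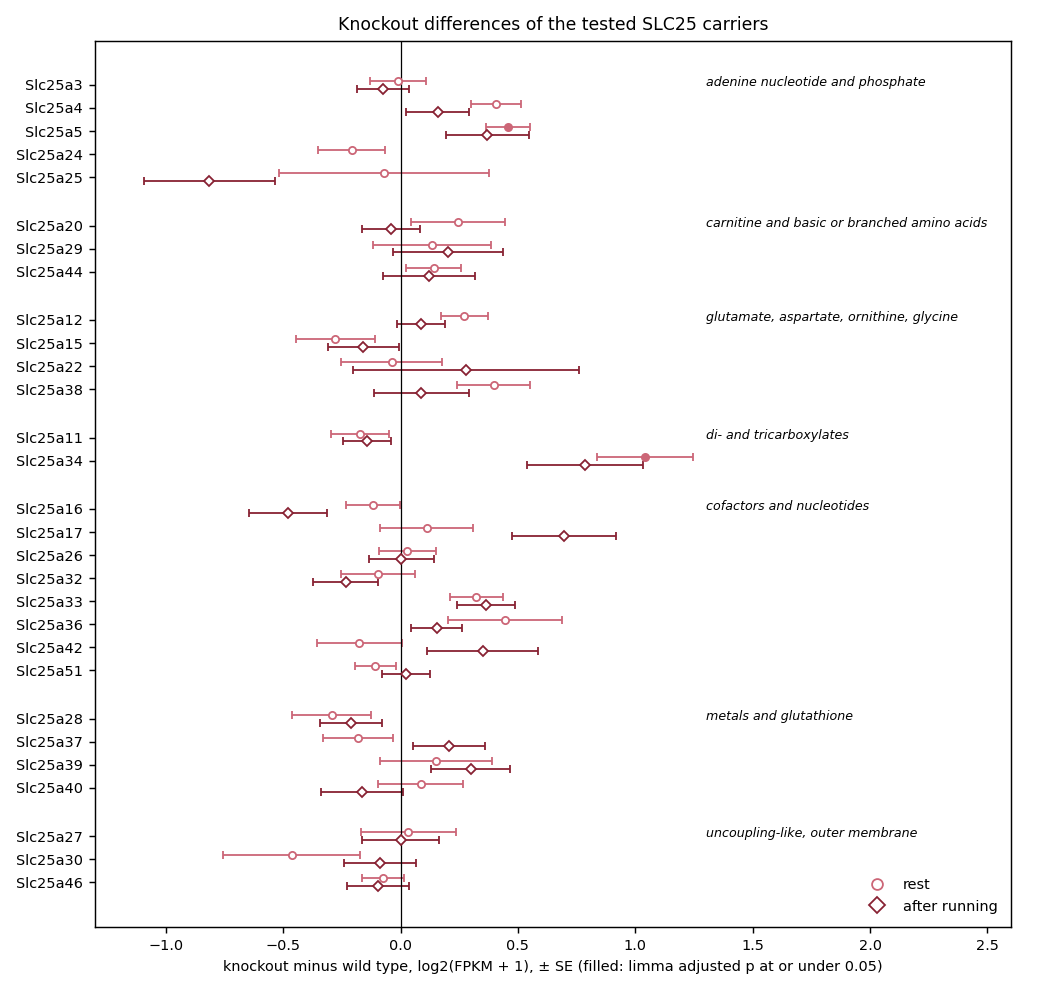
Limma differences, knockout minus wild type, on log2(FPKM + 1) with SE bars for 29 of the 30 carriers tested at rest (circles) and 28 of the 29 tested after running (diamonds), grouped by what they carry; filled markers passed an adjusted p of 0.05. The filled markers are Slc25a5 and Slc25a34 at rest, and the widest bars belong to Slc25a25 at rest and Slc25a22 after running.

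Among the adenine nucleotide and phosphate carriers, 10 in all, 5 were tested at rest and 1, Slc25a5, was called; of 4 tested after running 0 were called. Slc25a4 held 3827, 3897 and 3823 FPKM in wild type and 4863, 5202 and 5237 in knockout at rest. The knockout libraries all lay above, with a limma difference of 0.41 ± 0.11 (SE) and an adjusted p of 0.0798. It was 0.0493 in a limma fit over all 12 libraries, in which Slc25a5 was not called. After running Slc25a4 held 4505, 4485 and 4116 FPKM in wild type and 4378, 4684 and 5639.85 in knockout, which overlapped, and the limma difference was 0.16 ± 0.13 with adjusted p = 0.553. Without the third knockout library, the highest of the 6, the difference was 0.053.

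Slc25a3 supplies the phosphate that ATP synthesis uses. It was at 573, 502 and 449 FPKM in wild type and 471, 510 and 527 in knockout at rest. The running libraries held 595, 527 and 546 FPKM and 571, 506 and 505. The genotypes overlapped in both conditions, with limma differences of -0.01 ± 0.12 and -0.08 ± 0.11. Slc25a5 after running stood at 71.4, 45.1 and 62.3 FPKM in wild type and 86.0, 72.3 and 70.4 in knockout. The lowest knockout library lay under the highest wild-type one, and the limma difference of 0.37 ± 0.18 had an adjusted p of 0.297; it was 0.18 without the second wild-type library.

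The mitochondrial content list gives the setting for these carriers. Of its 19 genes of the citrate cycle, respiratory chain and mitochondrial DNA upkeep, limma called 2 higher at rest, among them Tfam (a mitochondrial DNA packaging factor), and 0 lower. Their median difference was 0.13 and 16 of 19 lay above 0, with a summed level of 8957 to 9882 FPKM in wild type and 9824 to 11214 in knockout. After running 1 of 19 was called, Tfam, higher, and the median was -0.06, 7 of 19 lying above 0. At rest 5 of the 19 had all knockout libraries above all wild-type ones and 0 below, beside 15.6% and 12.4% of all tested genes. After running 3 lay above and 4 below, beside 12.4% and 13.7%. Of all tested genes limma called 3.04% higher at rest and 1.58% higher after running. The part of mitochondrial content in the values of Slc25a4 and Slc25a5 was not tested.

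Slc25a25 belongs to the calcium-sensitive carriers that exchange ATP-magnesium for phosphate and so set the adenine nucleotide pool of the matrix. At rest it was at 16.1, 7.42 and 12.9 FPKM in wild type and 6.76, 8.13 and 23.4 in knockout. These overlapped, 1 knockout library being the highest of the 6, and the limma difference was -0.07 ± 0.45 although the knockout mean was above the wild-type mean in FPKM. Running libraries of Slc25a25 were at 28.1, 39.1 and 48.8 FPKM in wild type and 13.7, 27.6 and 24.4 in knockout. Every wild-type library lay above every knockout library, the closest pair being 28.1 and 27.6. The limma difference was -0.81 ± 0.28 with adjusted p = 0.162, and the authors' deposited q was 0.00132; without the first knockout library the difference was -0.52. Slc25a25 overlaps Naif1 in the reference gene table, strand of counting is not given in the sources used here, and Naif1 averaged at most 0.653 FPKM in any group. Of the other ATP-magnesium carriers Slc25a24 was at 1.90, 2.35 and 1.91 FPKM in wild type and 1.67, 1.69 and 1.56 in knockout at rest, apart but not called (limma adjusted p = 0.453), and Slc25a23 was between 1.36 and 2.32 FPKM in all 12 libraries.

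Carriers of carnitine and of basic or branched amino acids numbered 6, of which 3 were tested in each condition and 0 called. Slc25a20 exchanges acylcarnitines for carnitine and so feeds fatty acid oxidation. It was at 61.7, 46.3 and 35.4 FPKM in wild type and 48.1, 60.2 and 58.6 in knockout at rest, with overlap. In running muscle it stood at 74.7, 72.3 and 60.1 FPKM in wild type and 71.9, 65.8 and 62.9 in knockout, again with overlap. The limma differences were 0.24 ± 0.20 and -0.04 ± 0.12. Slc25a29, a carrier of basic amino acids, lay between 1.63 and 4.15 FPKM, and Slc25a44, linked to branched-chain amino acids, between 6.90 and 12.6.

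Of 7 carriers for glutamate, aspartate, ornithine and glycine, 4 were tested in each condition and 0 called. Slc25a12, the calcium-regulated aspartate/glutamate carrier of muscle, was at 198, 197 and 191 FPKM in wild type and 213, 254 and 243 in knockout at rest. The genotypes did not overlap there, and the limma difference was 0.27 ± 0.10 with adjusted p = 0.175. Its running libraries were at 219, 214 and 212 FPKM in wild type and 213, 229 and 244 in knockout, with overlap. Its liver counterpart Slc25a13, known as citrin, was at 0.46 FPKM or less in wild type and 0.579 or less in knockout in every library. Slc25a38, a glycine carrier needed for haem synthesis, was at 5.69, 4.05 and 5.69 FPKM in wild type and 6.51, 8.10 and 6.55 in knockout at rest. Its groups were apart, with a limma difference of 0.40 ± 0.15 and adjusted p = 0.192. Slc25a15, the ornithine carrier, and Slc25a22, a glutamate carrier, overlapped in both conditions.

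Of 6 di- and tricarboxylate carriers 2 were tested, Slc25a11 and Slc25a34. Slc25a11 works with Slc25a12 in the malate-aspartate shuttle. It was at 179, 189 and 156 FPKM in wild type and 138, 155 and 173 in knockout at rest, with overlap. In running muscle it held 180.3, 173 and 163 FPKM in wild type and 161, 149 and 157 in knockout, apart with the knockout below. The limma differences were -0.17 ± 0.12 and -0.14 ± 0.10, with adjusted p = 0.472 in both conditions. Rnf167 overlaps it in the gene table, which unstranded counting would not part. Slc25a34 after running was at 13.4, 11.0 and 6.44 FPKM in wild type and 21.5, 15.0 and 17.4 in knockout. The groups were apart as at rest, but the limma difference of 0.79 ± 0.25 had an adjusted p of 0.138, beside the authors' deposited q of 0.00132, and was 0.51 without the third wild-type library. Slc25a1, the citrate carrier, and Slc25a10, the dicarboxylate carrier, were low in this muscle, at no more than 1.64 and 1.08 FPKM in any library.

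Carriers of cofactors and nucleotides had 10 members in the tables, 9 tested in each condition and 0 called by limma. Slc25a36 and Slc25a33 carry pyrimidine nucleotides used for mitochondrial DNA and RNA. Slc25a36 was at 18.2, 17.9 and 20.2 FPKM in wild type and 35.5, 16.8 and 28.8 in knockout at rest. The authors' deposited q was 0.0134, while 1 knockout library lay below all wild-type ones and limma gave 0.44 ± 0.24 with adjusted p = 0.343. Without that library, the second, the limma difference was 0.74 with adjusted p = 0.0522, and without the first knockout library it was 0.22. Running muscle held 18.8, 17.9 and 20.5 FPKM in wild type and 21.8, 21.4 and 20.6 in knockout.

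Slc25a33 was at 9.27, 8.50 and 10.8 FPKM in wild type and 12.3, 11.9 and 12 in knockout at rest. The running values were 6.87, 6.29 and 6.77 FPKM in wild type and 9.44, 9.29 and 7.84 in knockout. The knockout lay above in both conditions without overlap. Limma differences were 0.32 ± 0.11 and 0.36 ± 0.12, with adjusted p of 0.152 and 0.157.

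Slc25a17, which sits in peroxisomes and carries coenzyme A, FAD and related cofactors, overlapped between genotypes at rest, at 7.98, 7.10 and 4.28 FPKM in wild type and 6.46, 6.83 and 7.30 in knockout. Its values after running were 6.96, 5.35 and 7.44 FPKM in wild type and 16.0, 10.0 and 8.71 in knockout. The knockout libraries then lay above all wild-type ones, with a limma difference of 0.70 ± 0.22, adjusted p = 0.14, and the authors' deposited q of 0.00683. It was 0.46 without the first knockout library.

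Slc25a16, linked to mitochondrial coenzyme A, was lower in the knockout after running by the authors' deposited q. At rest it was at 16.6, 16.8 and 13.7 FPKM in wild type and 13.8, 15.5 and 13.8 in knockout, with overlap. After running it was at 12.6, 13.2 and 17 FPKM in wild type and 8.43, 11.9 and 9.64 in knockout, with every knockout library below. Limma gave -0.48 ± 0.16 with adjusted p = 0.162, and the authors' deposited q was 0.0431. Slc25a51, the NAD carrier, was the steadiest of the group, between 17.9 and 19.9 FPKM in all 12 libraries. At rest its knockout libraries all lay below the wild-type ones, with a limma difference of -0.11 ± 0.09 and adjusted p = 0.529. Slc25a42, which carries coenzyme A, Slc25a26, which carries S-adenosylmethionine, and Slc25a32, linked to folate and FAD, overlapped between genotypes in both conditions.

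The 4 carriers of metals and glutathione were all tested and 0 were called. Slc25a39, the glutathione carrier, was at 12, 17.6 and 23.6 FPKM in wild type and 16.8, 17.7 and 23.4 in knockout at rest. After running it was at 22.0, 19.9 and 17.4 FPKM and 28.1, 19.2 and 27.0. The spread within a group exceeded the distance between genotypes at rest, and libraries overlapped in both conditions. The mitoferrins Slc25a37 and Slc25a28, which bring iron in, lay at 2.23 to 4.21 and 10.0 to 17.7 FPKM. Of the 4 uncoupling-like or outer-membrane members 3 were tested and 0 called. Slc25a46, which sits in the outer membrane and takes part in mitochondrial dynamics, was at 20.6, 20.7 and 19.9 FPKM in wild type and 19.1, 18.9 and 19.9 in knockout at rest, the last library of each being nearly equal, and at 20.3, 18.7 and 23.8 FPKM and 21.4, 19.4 and 17.7 after running. Slc25a30 was at 2.87, 6.40 and 5.63 FPKM in wild type and 2.58, 4.73 and 2.53 in knockout at rest, with overlap and a limma difference of -0.46 ± 0.29, adjusted p = 0.406, and at 3.98, 4.01 and 5.47 FPKM and 3.78, 4.05 and 4.56 after running, also with overlap.

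Whether the knockout difference itself depended on running was tested with a limma contrast over the 12 libraries. It called 0 of 29 carriers and 0 of 8854 genes, with 433 genes (4.89%) and 0 carriers at an unadjusted p under 0.05. The contrast ranged from -0.74 ± 0.59 (SE) for Slc25a25 to 0.59 for Slc25a17 on the log2 scale, and the lowest limma adjusted p among the carriers was 0.923. The calls of Slc25a34 and Slc25a5 at rest and their absence after running are therefore not shown to differ.

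Running and rest stand in tables that were normalized separately, so the next values carry no test. In wild-type muscle the median log2 ratio of running to rest was -0.00 over 8854 genes and 0.02 over 29 carriers, and in knockout muscle -0.02 and 0.07. In wild type, 7 carriers had all running libraries above all resting ones, Slc25a4, Slc25a5, Slc25a12, Slc25a25, Slc25a32, Slc25a34 and Slc25a38, where 7.54% of genes did so. The opposite held for 3, Slc25a33, Slc25a42 and Slc25a51, against 8.19%. In knockout muscle 4 carriers lay above, Slc25a5, Slc25a17, Slc25a20 and Slc25a34, against 5.87% of genes, and 2 lay below, Slc25a16 and Slc25a33, against 10.0%. Slc25a5 and Slc25a34 were thus above, and Slc25a33 below, in both genotypes.

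A ratio of means of 2 or more on FPKM + 1 was reached in wild type by 2 carriers, Slc25a25 and Slc25a34, where 0.779% of genes reached it upwards, and in knockout by 0, where 0.599% did. The FPKM of Slc25a25 after running was 3.18 times its resting mean in wild type and 1.72 times in knockout. For Slc25a34 the ratios were 2.45 and 1.87, and for Slc25a5 1.82 and 1.68. Slc25a22 had ratios of 1.87 and 2.34, but its running libraries ran from 1.14 to 5.38 FPKM in wild type and from 2.21 to 7.94 in knockout, overlapping rest in both. The ratios of Slc25a33 were 0.699 and 0.732.

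**Figure D5:**
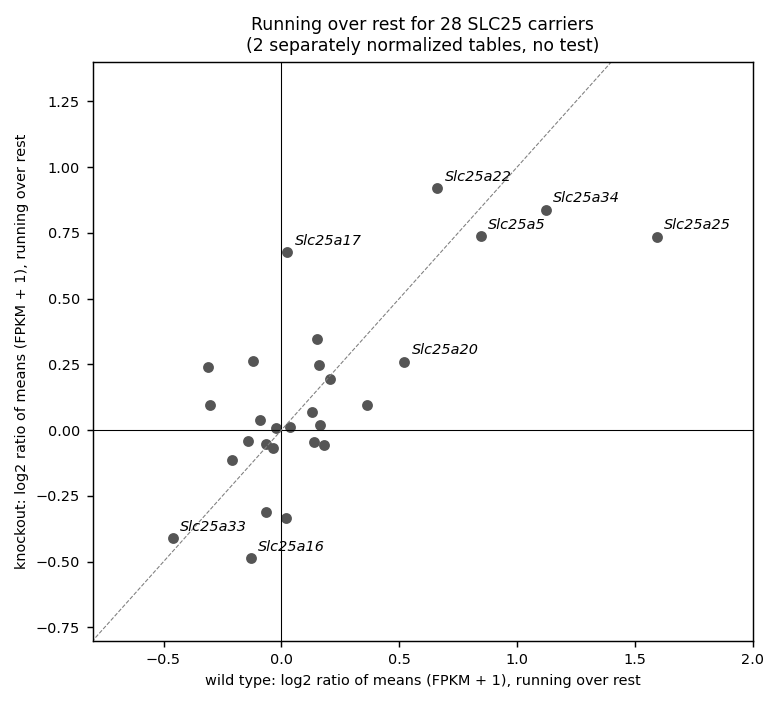
Log2 ratio of group means of FPKM + 1, running over rest, in wild type (horizontal) against knockout (vertical) for 28 of the 29 carriers tested in both tables; each point is a carrier, the dashed line marks equal ratios, and no test applies. Slc25a25 and Slc25a34 lie farthest to the right, and Slc25a33 is low on both axes.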

How the data were processed

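FPKM values of the 12 RNA-seq libraries, group means, p-values and q-values were deposited by the authors in 2 tables, 1 per condition. TopHat2, Bowtie, Cuffdiff and HOMER with mm9 are named per the submitters' processing notes; versions, annotation, strandedness and normalization settings are not given in the sources used here. Which table is rest and which running was read from the tables' names, and columns were matched to samples by name (0 left unmatched). The 4 GRO-seq libraries were not analysed here.

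Genes the authors tested (deposited p under 1) were fitted per table with limma (version 3.58.1, under R 4.3.3) after adding a pseudocount of 1 and taking log2; variances followed a trend on level, tests were two-sided, and Benjamini-Hochberg adjustment ran over each table; SEs are limma's, SDs are over 3 libraries. This scale shrinks the changes of low genes. With 3 libraries against 3, exact permutation cannot reach a p below 0.1, so it was not used. The fit was also run on simulated data, drawn as independent normal values for each gene. That simulation held no outlying library, so it cannot tell how the fit behaves with such libraries. Members with library values were Hdac3, members past limma or the authors' q, the 8 highest, the highest of each function group and the 3 largest differences per table; Slc25a24, Slc25a33 and Slc25a38 were added after their values were seen. A carrier and a content gene are counted but not reported here by name. Members and lists were chosen with earlier results of these data known. Alternatives were other pseudocounts, filters and scaling, no trend, a replicate block, a fit over 12 libraries, the authors' q, and leaving out each library. Promoter sequences and names came from RefSeq tables of GRCm38.p6, another build than mm9, and were matched by symbol.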

Additional observations from a re-analysis of the deposited data

How the results depend on the processing

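At rest, where limma called 2 carriers, the count was 0 without a filter on level, 1 (Slc25a34) without the mean-variance trend, and 0 to 1 when a library was left out. After running the authors' q called 5 carriers where limma called 0. Over all genes at rest the count of 434 became 247 without a filter, 672 in the fit over 12 libraries, 998 by the authors' q (543 higher and 455 lower, beside 280 and 154), and 20 to 292 with a library left out, the 20 being without the second wild-type library. After running, 337 became 109, 586, 865 and 70 to 103. The contrast of effects over all genes gave 0 to 1 with a library left out.

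Replicate numbers gave no clear sign of pairing. Deviations of same-numbered libraries from their group means correlated at 0.04, -0.04 and 0.02 at rest and 0.14, -0.29 and -0.13 after running. Not every library correlated best with its own number. Deviations within a group cancel, so these correlations depend on each other and cannot exclude pairing. With a replicate block the counts were 0 carriers and 52 genes at rest, and 170 genes after running.

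Leaving out a library turned the sign of 6 small differences: at rest Slc25a3 (-0.0940 to 0.0806), Slc25a17 (-0.12 to 0.26), Slc25a25 (-0.58 to 0.24) and Slc25a39 (-0.0897 to 0.37), and after running Slc25a20 (-0.14 to 0.0179) and Slc25a30 (-0.15 to 0.0370). Leaving out a library leaves fewer samples and dropping the filter tests more genes; for the other settings the cause was not tested. Over the remaining alternatives 217 of 224 values for named carriers kept direction and side of the threshold. Most of these values belong to carriers not called in the main fit. Of the carriers called at rest, Slc25a34 passed in 6 of 8 alternatives and Slc25a5 in 4 of 8. Unknown depth leaves counting error of the low carriers unquantified.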

Other observations

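Carriers of the same family under other names were measured as well. Of 8 listed, 5 were in the tables, 4 were tested, and limma called 0 in either condition. Ucp3, the uncoupling protein of muscle, was at 60.2, 52.1 and 28.3 FPKM in wild type and 27.9, 40.0 and 23.7 in knockout at rest, with overlap, a limma difference of -0.57 ± 0.30 and adjusted p = 0.323. The authors' deposited table gave it a q of 0.00119. After running it was at 163, 115 and 79.1 FPKM in wild type and 148, 135 and 118 in knockout, above all resting libraries of its genotype, across separately normalized tables and without a test. Mtch2, an outer-membrane member, lay between 56.9 and 77.6 FPKM in all 12 libraries, and Ucp1 was listed at 0.

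Other proteins of mitochondrial transport were listed apart from the family. Of 35, 33 were in the tables and 28 were tested. Limma called 1 of the 28 higher at rest and 0 lower, beside 3.04% and 1.67% of all tested genes. The authors' q put 3 higher and 1 lower at rest, beside 5.9% and 4.94%. The gene limma called at rest was Vdac3, an outer-membrane channel. It averaged 491 ± 38.2 FPKM in wild type and 757 ± 22.3 in knockout (SD, n = 3), a limma difference of 0.63 ± 0.10 with adjusted p = 0.0204. Mpc1, a subunit of the mitochondrial pyruvate carrier, was at 762, 687 and 528 FPKM in wild type and 943, 884 and 976 in knockout, apart, with limma adjusted p = 0.101 and the authors' deposited q of 0.0139. Timm23, a pore of the protein import machinery, averaged 273 ± 14.1 and 366 ± 19.9 FPKM, also apart, with limma adjusted p = 0.0552 and the authors' deposited q of 0.0440. Mcu, the calcium uniporter, lay below in the knockout without overlap, at 11.7 ± 1.26 and 8.24 ± 0.617 FPKM, with limma adjusted p = 0.0724 and the authors' deposited q of 0.0474. After running limma called 0 of 28, beside 3.73% of all tested genes, and the authors' q called 1, beside 9.57%. That gene was Timm22, which inserts SLC25 proteins into the inner membrane. It was at 10.4, 9.60 and 11.6 FPKM in wild type and 12.4, 17.2 and 15.6 in knockout, with limma adjusted p = 0.135.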
